A study of Mus musculus with 12 samples.

Results

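The dual-specificity MAP kinase phosphatases described here are the 8 genes Dusp1, Dusp2, Dusp4, Dusp5, Dusp6, Dusp10, Dusp14 and Dusp16, taken by name with every probe set that the array's annotation gives to one of them alone. They are 8 of the 18193 genes on the array and have 10 of its 45101 probe sets, 2 each for Dusp10 and Dusp16 and 1 for each of the others.

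Transcripts were measured on 12 Affymetrix Mouse Genome 430 2.0 arrays of CD4+ T cells from female mice of BALB/c background, 3 arrays in each of 4 groups. SKG mice, which carry a mutated Zap70, the gene of a kinase next to the T cell receptor, and BALB/c mice (BALB) were 40 weeks old. Their cells are labelled as stimulated with PMA, which activates protein kinase C, and ionomycin, a calcium ionophore, and as FR4-negative CD4+ cells of lymph node, but the label of BALB replicate 1 names CD4+ cells of spleen and lymph node and no FR4 sort. The other arrays hold spleen CD4+ T cells 7 days after transfer, with an age of 7 weeks and no stimulation in their labels. In the IFN-γ-deficient transfer, cells of IFN-γ knockout donors were in RAG2 knockout hosts, which make no T or B cells of their own. In the IL-6-deficient transfer, cells of IL-6 knockout donors were in hosts that lacked both IL-6 and RAG2. Both transfers thus used knockout donors, and the 2 transfers differ in the genotype of donor and of host at once. The labels do not say whether replicates were separate animals, and the p-values then cover the spread of these arrays alone, which may be technical.

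MAP kinases belong to the kinase cascades that carry T cell receptor and stress signals to the nucleus. They are switched on when a threonine and a tyrosine of their activation loop are both phosphorylated. Dual-specificity phosphatases remove both phosphates and so end the signal. Many of these enzymes are themselves induced by the pathway they switch off, which makes their transcripts a negative feedback of ERK, JNK and p38. Dusp1, Dusp2, Dusp4 and Dusp5 encode inducible nuclear enzymes. Dusp6 encodes a cytoplasmic enzyme selective for ERK, Dusp10 and Dusp16 encode enzymes that act mainly on JNK and p38, and Dusp14 encodes a small atypical member without the kinase-binding domain of the others.

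The promoters of Dusp1, Dusp5 and Dusp16, which fell most in SKG cells, are shown because each holds the core of the cAMP response element, the site of CREB and ATF factors. They are the 250 bases before the RefSeq start, read 5′ to 3′ on the gene's strand, and the capitals mark TGACG on either strand, the core of the element. Dusp6 is shown beside them because its mean was higher in SKG cells, by 1.11 on the log2 scale. It did not pass the test described below. Dusp2 and Dusp10, which also fell, lack TGACG in this window and are not shown. The promoters shown were picked with the differences known, so their display does not test a link of motif and difference.
Dusp1, GRCm38.p6 chr17:26508473-26508722, minus strand: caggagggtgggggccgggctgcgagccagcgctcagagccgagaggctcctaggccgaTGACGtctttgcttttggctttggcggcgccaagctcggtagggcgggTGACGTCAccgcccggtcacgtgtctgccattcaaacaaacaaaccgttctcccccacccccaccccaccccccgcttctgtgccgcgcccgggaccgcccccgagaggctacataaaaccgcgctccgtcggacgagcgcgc
Dusp5, GRCm38.p6 chr19:53528895-53529144, plus strand: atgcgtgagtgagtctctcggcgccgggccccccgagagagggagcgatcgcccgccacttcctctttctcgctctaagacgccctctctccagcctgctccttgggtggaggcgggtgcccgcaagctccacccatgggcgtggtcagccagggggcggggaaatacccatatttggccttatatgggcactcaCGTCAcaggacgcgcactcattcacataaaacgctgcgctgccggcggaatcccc
Dusp16, GRCm38.p6 chr6:134792629-134792878, minus strand: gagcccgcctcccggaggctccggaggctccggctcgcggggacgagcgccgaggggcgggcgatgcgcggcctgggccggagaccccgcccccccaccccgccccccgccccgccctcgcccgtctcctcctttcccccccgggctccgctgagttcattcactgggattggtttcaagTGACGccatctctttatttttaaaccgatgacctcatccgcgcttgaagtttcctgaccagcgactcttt
Dusp6, GRCm38.p6 chr10:99262981-99263230, plus strand: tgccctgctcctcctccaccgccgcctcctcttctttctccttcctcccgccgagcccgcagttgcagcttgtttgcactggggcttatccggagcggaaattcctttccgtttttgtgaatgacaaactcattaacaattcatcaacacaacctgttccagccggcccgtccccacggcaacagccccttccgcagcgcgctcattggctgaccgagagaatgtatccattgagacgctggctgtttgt

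RefSeq promoters on the mouse build GRCm38.p6 were matched for 7 of the 8 members, all but Dusp4. The core TGACG was found 3 times in the Dusp1 promoter and once each in those of Dusp5 and Dusp16, and it was not found in the windows of Dusp2, Dusp6, Dusp10 and Dusp14. The full palindrome TGACGTCA, which contains that core on both strands, was present in Dusp1 alone among the 7, starting 143 bases before the start. Of all 32851 mouse promoters searched in the same way, 17.8% held the core and 1.55% the full palindrome. The E-box CACGTG was found once each in Dusp1 and Dusp2 (6.02% of all promoters). The NFAT core GGAAA was found in Dusp5, Dusp6 and Dusp16 (55.6% of all promoters), and neither the AP-1 site TGANTCA (6.75%) nor the ETS core CCGGAAG (6.91%) was found in any of the 7. Both strands were searched for each motif. A match describes the letters of a window and does not show that a factor was bound there.

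Levels below are log2(intensity + 16) after quantile normalization of the 6 arrays of a comparison, and a difference is on the same scale, on which the change of a dim gene is understated. Genes entered a test when they averaged at least the 40th percentile of all probe sets, which was 4.74 for the SKG and BALB arrays and 4.72 for the transfer arrays. All 8 genes and all 10 probe sets passed this filter in both comparisons. The labelled cell type was checked first. Cd4, the coreceptor that defines these cells, was at 6.89 ± 0.30 in SKG and 6.67 ± 0.09 in BALB arrays (SD, n = 3 each), and all 8 T cell markers on the array were tested, of which 2 were lower in SKG and 0 higher, or 1 higher, Cd3g, with the replicate number as a block (1.06, limma adjusted p = 0.00055, against 0.051 unblocked). Trimmed mean intensities of single arrays lay between 161 and 233. In bulk RNA, fewer cells of a type and less RNA per cell cannot be told apart.

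In SKG cells 5 of the 8 phosphatase genes fell relative to BALB cells, and none rose by limma. They were Dusp1, Dusp2, Dusp5, Dusp10 and Dusp16. Over all 12073 genes tested 11.8% were called lower and 15.8% higher, 27.5% in all. The same 5 members had SKG arrays that all lay below the BALB arrays, which held for 18.4% of all genes. The median difference was -0.96 over the 8 members and 0.06 over all genes tested. The decrease ranged from 1.47-fold for Dusp2 to 5.23-fold for Dusp1, so the genes for enzymes of ERK, JNK and p38 alike were among those that fell.

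Dusp1 encodes the prototype nuclear phosphatase, which acts on p38, JNK and ERK and is an immediate early gene of stress and growth signals. In SKG replicates 1 to 3 its level was 9.65, 9.52 and 9.81, and in BALB replicates 1 to 3 it was 12.07, 11.81 and 12.26. Every SKG array lay below every BALB array, and the gap was wide compared with the spread inside either group. The deposited intensity of the probe set was between 640.1 and 1033 in SKG arrays and between 3334.4 and 6397.3 in BALB arrays. Dusp1 fell by 2.39 ± 0.15 (SE), which is 5.23-fold (limma adjusted p = 5.1e-05). Of the 12073 genes tested 0.431% had a difference at least as low, Dusp1 included.

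Dusp5 encodes a nuclear phosphatase selective for ERK. The SKG replicates had 9.32, 9.76 and 9.77 and the BALB replicates 11.61, 11.57 and 11.15. The groups did not overlap, with SKG replicate 1 lowest and BALB replicate 3 the nearest of its group. Dusp5 fell by 1.83 ± 0.18 (SE), or 3.55-fold (limma adjusted p = 0.00032). With replicates taken by number, the SKG minus BALB difference was -2.29 for replicate 1, -1.81 for replicate 2 and -1.38 for replicate 3, the widest range among the genes that fell.

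Dusp2, an activation-induced nuclear phosphatase first known from T cells, was at 11.43, 11.47 and 11.70 in SKG replicates and at 11.99, 12.02 and 12.27 in BALB replicates. Again no SKG array reached a BALB array, but the distance was small. In the deposited intensities, before normalization, the groups overlapped. There SKG replicate 3 was at 4001.1, above BALB replicates 1 and 2 at 3795.2 and 3854.3. Dusp2 fell by 0.56 ± 0.12 (SE), or 1.47-fold (limma adjusted p = 0.0092), and 13.2% of all genes tested had a difference at least as low. Without normalization between arrays its difference was -0.68 and the call was lost (adjusted p = 0.16, with 16.2% of all genes called).

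Dusp4, which encodes another inducible nuclear phosphatase, did not pass. Its level was 11.30, 11.30 and 10.37 in SKG replicates against 11.61, 11.31 and 11.06 in BALB. The groups overlapped, and SKG replicate 3 lay well below all the other arrays. The difference was -0.34 ± 0.25 (SE, limma adjusted p = 0.37) with a 95% interval from -0.91 to 0.23, which leaves room for a decrease as large as that of Dusp2.

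The genes for the JNK and p38 phosphatases both fell. Dusp16 was at 8.12, 8.08 and 8.06 in SKG replicates, against 10.12, 9.96 and 9.78 in BALB. The SKG arrays were almost level and far below the BALB arrays, and Dusp16 fell by 1.87 ± 0.15 (SE), or 3.65-fold (limma adjusted p = 0.00013). Dusp10 was at 6.95, 7.07 and 6.61 in SKG replicates, against 8.31, 8.28 and 8.15 in BALB. The groups were again separate, and Dusp10 fell by 1.37 ± 0.18 (SE), or 2.58-fold (limma adjusted p = 0.0010).

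Each of these genes has a second, dimmer probe set, whose mean lay near the filter floor. For Dusp16 it was at 4.75, 4.94 and 4.87 in SKG replicates against 5.63, 5.24 and 6.17 in BALB, with a difference of -0.83 ± 0.26 (SE). Fitted over all 26404 probe sets tested, of which 10% were called lower, it just missed the threshold (limma adjusted p = 0.05002) and was called with the replicate number as a block (0.039), where 13.8% of probe sets were called lower. For Dusp10 it was at 4.26, 4.56 and 5.01 in SKG replicates against 4.87, 5.24 and 5.71 in BALB, where the groups overlapped, and the difference of -0.66 ± 0.29 (SE) did not pass (limma adjusted p = 0.14). Both dim probe sets had the sign of the bright one and a smaller difference.

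Dusp6, the cytoplasmic ERK phosphatase and a classical readout of ERK activity, went the other way. It was at 11.70, 11.84 and 10.55 in SKG replicates, against 10.55, 10.66 and 9.55 in BALB. Replicate 3 was the lowest array of both groups, so SKG replicate 3 lay among the BALB arrays and the groups overlapped. This overlap came with normalization. The deposited intensity was between 1764.7 and 3086.1 in SKG arrays and between 893.1 and 1511.6 in BALB arrays. The difference was 1.11 ± 0.38 (SE) and did not pass (limma adjusted p = 0.056), with a 95% interval from 0.26 to 1.96. Taken by replicate number it was 1.15, 1.19 and 1.0, and with the replicate number as a block the same difference had an SE of 0.10 and was called (limma adjusted p = 0.00028). With that block 19.9% of all genes tested were called higher and 14.7% lower, and of the members Dusp6 was called higher and the same 5 genes lower. Dusp6 was also called without normalization (adjusted p = 0.040), with array weights (0.0019), with all 12 arrays in one fit (0.047) and without SKG replicate 3 (1.51, adjusted p = 0.0050). In those fits 16.2%, 42.5%, 24.1% and 32.4% of all genes were called in either direction.

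Dusp14 encodes the atypical member, described as a negative regulator of T cell receptor signalling. It was at 5.86, 5.55 and 6.03 in SKG replicates and at 5.60, 5.60 and 5.91 in BALB replicates, close to the filter floor. The groups overlapped throughout and the difference was 0.11 ± 0.21 (SE, limma adjusted p = 0.75), with a 95% interval from -0.36 to 0.58.

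**Figure D1:**
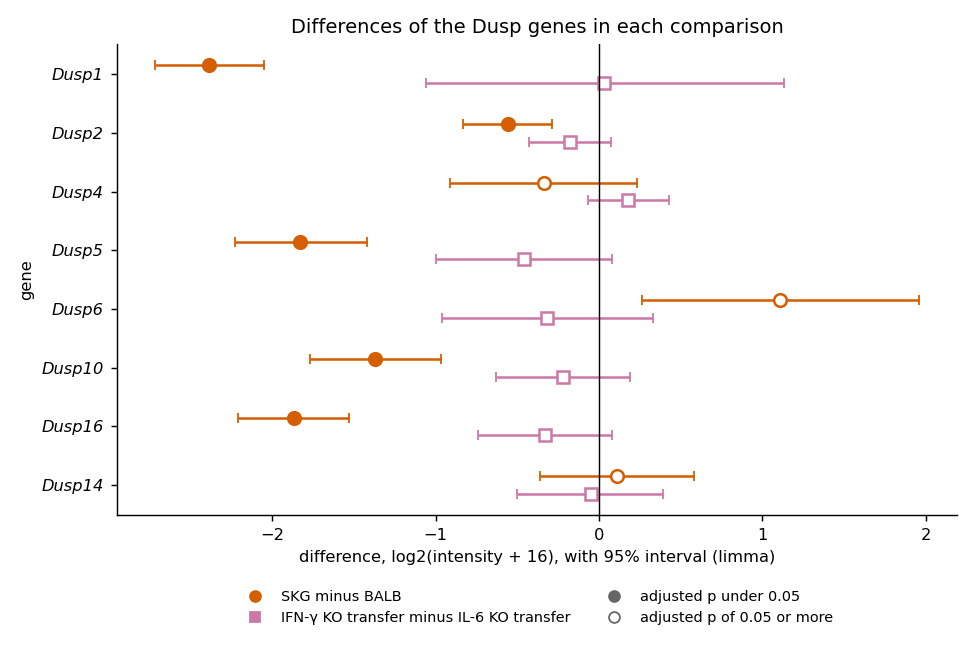
Difference of each Dusp gene on the log2(intensity + 16) scale (horizontal axis) with its 95% interval from limma, SKG minus BALB as circles above and IFN-γ-deficient minus IL-6-deficient transfer as squares below, filled where the adjusted p was under 0.05. Dusp1, Dusp2, Dusp5, Dusp10 and Dusp16 are filled on the lower side for SKG minus BALB, Dusp6 lies at 1.11 unfilled, and no square is filled.

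One measure of array quality and some markers of other cell types moved with the strain. The actin 3′/5′ signal ratio, which rises when RNA is degraded, had values of 2.12, 1.93 and 2.63 on the SKG arrays and of 3.04, 2.95 and 3.98 on the BALB arrays, and the groups did not overlap. The Gapdh ratio did overlap, with 3.03, 2.57 and 2.90 on the SKG arrays and 3.28, 3.03 and 2.86 on the BALB arrays. For plasma cell markers the summed deposited intensity of 5 genes ran from 4956 to 6945 in SKG and from 2507 to 4360 in BALB arrays. Most of it came from Xbp1, which T cells also express, at 4246.1 to 6294.4 in SKG and 2133.1 to 3501.3 in BALB arrays. Of 4 tested genes 2 were higher, Xbp1 and Derl3. Jchain, at 1.01, and Sdc1, with the opposite sign at -0.64, did not pass. For 4 NK cell markers the sum ran from 448 to 1679 in SKG and from 69 to 167 in BALB arrays, with 1 of 2 tested higher, Nkg7. This gene, also made by cytotoxic T cells, made up most of the sum, at 345 to 1644.2 in SKG and 50.9 to 101.6 in BALB arrays. For 2 CD8 markers the sum ran from 25 to 143 in SKG and from 217 to 286 in BALB arrays and was carried by Cd8b1, which fell by 2.48. The other CD8 marker, Cd8a, had the opposite sign, at 5.55 ± 0.42 in SKG against 4.74 ± 0.39 in BALB arrays on the log2 scale, and did not pass (limma adjusted p = 0.072). For dendritic cell markers the sums overlapped, from 74 to 99 in SKG and from 66 to 83 in BALB arrays. Of these markers 1 of 4 tested was higher, Zbtb46, whose call was lost with the replicate block (limma adjusted p = 0.047, and 0.055 blocked). The sums of B cell, macrophage, neutrophil, erythroid and stromal markers also overlapped between the groups, and none of their tested genes passed. With the block the macrophage marker Cd68, at -0.61, was called (adjusted p = 0.025, against 0.12 unblocked). Ncr1, which defines NK cells, lay between 2.2 and 25.6 in SKG and between 2.3 and 26.3 in BALB arrays. Array medians ran from 15.7 to 27.6. The part of these differences in the Dusp result was not tested. Without BALB replicate 1, the array whose label names no FR4 sort, the same count of 5 genes was lower and 0 higher. In that fit 17.6% of all genes were called in either direction.

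The rest of the MAP kinase pathway had calls in both directions between SKG and BALB. In each list below whose counts differed, more genes fell than rose. Of all genes tested 11.8% were called lower and 15.8% higher. Of 11 other tested dual-specificity phosphatases 3 rose and 3 fell, with a median difference of -0.20. Dusp8, another phosphatase of JNK and p38, was at 5.36 ± 0.33 in SKG against 7.29 ± 0.34 in BALB arrays and fell by 1.93, and Dusp11, an RNA phosphatase, fell by 0.90. Dusp3, which acts on ERK and JNK, rose by 1.25, and Dusp19 by 0.96 (limma adjusted p from 0.00089 to 0.016 for these 4).

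Among the MAP kinases themselves 2 of 7 tested fell and 0 rose, Mapk14, the gene of p38α, by 1.59 and Mapk6 by 0.44 (limma adjusted p = 0.00050 and 0.018). Of 5 MAP kinase kinases 2 fell, Map2k1, which phosphorylates ERK, by 0.60 and Map2k3, which phosphorylates p38, by 0.63, and Map2k5 rose by 0.77. Of 12 upstream MAP3 and Raf kinases 5 fell and 2 rose, and among them Map3k3 fell by 1.23 and Araf rose by 1.07. Of 7 genes for Ras and its activators 1 fell, Rasgrp2, and 1 rose, Sos2. The downstream kinases were split, with 2 of 7 lower, among them Mknk2, which fell by 1.4, and 2 higher. Of 7 tested tyrosine phosphatases 1 fell, Ptpn6 (SHP-1), by 0.78, and 0 rose.

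Other inhibitors of the pathway also had calls in both directions. Of 12 tested Ras and ERK inhibitors 3 fell and 1 rose. Rasa3, a Ras GTPase-activating protein, was at 7.64 ± 0.69 in SKG against 10.02 ± 0.07 in BALB arrays and fell by 2.38 (limma adjusted p = 0.00092). Spry1, a feedback inhibitor induced by ERK signals, fell by 1.06 and Spred2 by 0.68, while Rasal3 rose by 1.0. With the replicate block, under which 19.9% of all genes were called higher and 14.7% lower, the counts of these lists moved by at most 2 genes. The added calls, named here because the block changed them, were Rasa1, Pebp1, Nras, Ptpre and Rps6ka3 as higher and Mapk12, Map3k1 and Fosl2 as lower, with blocked adjusted p from 0.010 to 0.049.

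The list of immediate early genes that ERK signals induce also held the regulators Srf, Elk1, Elk3 and Elk4. Of its 19 tested genes 7 fell and 3 rose. Elk4 was among those that fell (-0.65), and Elk3 (1.0) and Elk1 (0.96) were among those that rose. The 4 genes of the list with the smallest p all encode subunits of AP-1. Jun was at 8.13 ± 0.30 in SKG against 10.34 ± 0.05 in BALB arrays and fell by 2.21, Fosb fell by 1.94, Fosl1 by 1.74 and Fos by 1.26 (limma adjusted p from 0.00013 to 0.0014). The AP-1 genes Fosl2 and Junb of the same list did not pass, at -0.42 and 0.00 (adjusted p = 0.072 and 1.0). The Egr genes, a family of ERK-induced factors named here after their values were seen, were split. Egr1 was at 12.18 ± 0.09 in SKG against 11.29 ± 0.22 in BALB arrays and rose by 0.88 (limma adjusted p = 0.0017). Egr3 was at 11.16 ± 0.35 in SKG against 12.33 ± 0.18 in BALB arrays and fell by 1.18 (adjusted p = 0.0019), and Egr2 did not pass, with a difference of -0.01 (adjusted p = 0.95).

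**Figure D2:**
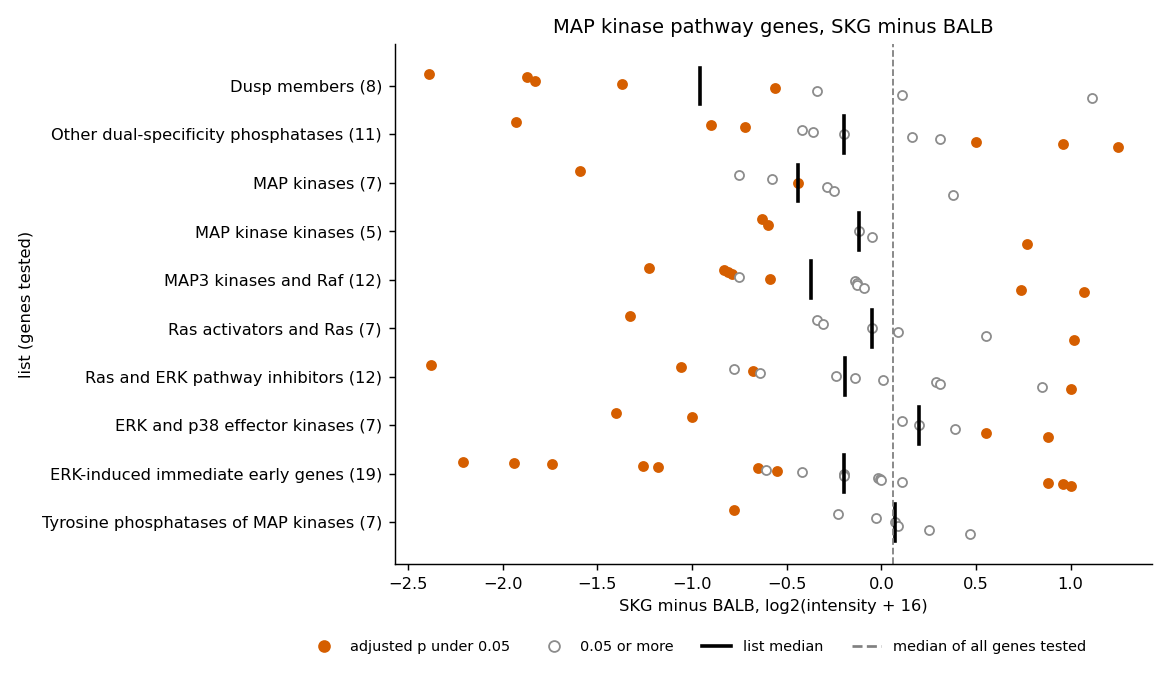
SKG minus BALB difference on the log2(intensity + 16) scale (horizontal axis) of every tested gene of each MAP kinase pathway list (rows, with the number of genes tested), filled where the adjusted p was under 0.05, with the list median as a black bar and the median of all genes as a dashed line. The 8 Dusp members have a median of -0.96 and all genes 0.06, and most other lists hold filled points on both sides of 0.

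None of the 8 genes differed between the transfers by limma. Of all 12262 genes tested 0.114% were called, and 4.34% had an unadjusted p under 0.05, which no member had. With the replicate block, under which 1.79% of genes were called, the count of members was again 0.

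Dusp5 had the largest difference. It was at 9.51, 9.43 and 10.18 in the IFN-γ-deficient transfer against 10.01, 10.10 and 10.39 in the IL-6-deficient transfer. Replicate 3 was the highest array of both groups, and the groups overlapped. The difference was -0.46 ± 0.23 (SE, limma adjusted p = 1.0, or 0.083 when blocked by replicate). With replicates 1 and 2 only, a setting chosen after seeing the data, it was -0.57 and was called (adjusted p = 0.0052, with 4.11% of all genes called).

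Dusp2 was at 10.80, 10.78 and 10.79 in the IFN-γ-deficient transfer and at 10.96, 10.94 and 11.02 in the IL-6-deficient transfer. The arrays of each group were nearly level and the groups did not overlap, which held for 4.53% of all genes in this direction. The difference of -0.18 ± 0.10 (SE) did not pass (limma adjusted p = 1.0, and 0.32 when blocked). Dusp16 also had groups that did not overlap, at 7.68, 7.80 and 8.02 in the IFN-γ-deficient transfer against 8.20, 8.03 and 8.27 in the IL-6-deficient transfer, with a difference of -0.33 ± 0.17 (SE, limma adjusted p = 1.0, or 0.26 when blocked).

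For the other 5 genes the differences lay between -0.32 for Dusp6 and 0.18 for Dusp4, and all of these groups overlapped. The 95% interval was widest for Dusp1, from -1.06 to 1.13 around a difference of 0.03, and rested on an SE of 0.47. With the replicate block the SE was 0.10, and by replicate number the differences were 0.06, 0.20 and -0.16. The unblocked intervals of Dusp10, from -0.63 to 0.19, and of Dusp14, from -0.50 to 0.39, were narrower.

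Of the other pathway lists, 0 members passed in the transfer comparison by limma. With the replicate block 3 immediate early genes were lower in the IFN-γ-deficient transfer, Ier3 at -1.01 (adjusted p = 0.0016), Fos at -0.66 (0.030) and Egr3 at -0.56 (0.021). Of the cell type markers Cd5, at 0.44 (0.028), and Derl3, at 0.98 (0.021), were called in the same fit, and 0 without the block.

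The difference between strains was set against the difference between transfers as an interaction over all 12 arrays, since the comparisons share no array. It was called for 4 of the 8 genes, all of them lower in the strain comparison, where 3.34% of 12176 genes were called in this direction and 8.2% in either. The strain difference less the transfer difference was -2.42 ± 0.52 (SE) for Dusp1, -1.50 ± 0.22 for Dusp16, -1.37 ± 0.31 for Dusp5 and -1.16 ± 0.24 for Dusp10 (limma adjusted p = 0.015, 0.0024, 0.018 and 0.013). Once the replicate number was a block, 7 of the 8 were called, 6 lower and Dusp6 higher at 1.43 (adjusted p = 5.7e-05, against 0.12 unblocked), with Dusp14 as the exception. The added calls Dusp2 at -0.37 and Dusp4 at -0.53 had adjusted p = 0.025 and 0.044 with it, against 0.19 and 0.35 unblocked. Of all genes 25.6% were then called, 10.3% lower and 15.3% higher. The call of Dusp5 was lost without SKG replicate 1 (adjusted p = 0.055), BALB replicate 1 (0.054) or IL-6-deficient replicate 1 (0.051), and that of Dusp10 without normalization (0.055) or when the median probe set stood for each gene (0.084).

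Levels over the 4 groups were read from all 12 arrays normalized together and are given without a test, because the labelled stimulation, age, tissue and host differ together between the strain and the transfer arrays. In the order of means, 5 genes had BALB on top. The share of all genes with BALB on top, or apart from the other groups, was not computed. Dusp1 was at 9.64 ± 0.14 in SKG, 9.63 ± 0.66 in the IFN-γ-deficient transfer, 9.60 ± 0.83 in the IL-6-deficient transfer and 12.03 ± 0.23 in BALB arrays (SD, n = 3 each). The first 3 overlapped and stood together, and BALB was apart from them by 2.38.

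Dusp16 and Dusp10 had the same outline. Dusp16 was at 8.10 ± 0.03 in SKG, 7.82 ± 0.17 in the IFN-γ-deficient transfer, 8.15 ± 0.12 in the IL-6-deficient transfer and 9.94 ± 0.17 in BALB arrays. BALB was separate, SKG and the IL-6-deficient transfer overlapped, and the IFN-γ-deficient transfer lay just below all SKG arrays. Dusp10 was at 6.87 ± 0.24 in SKG, 6.87 ± 0.09 in the IFN-γ-deficient transfer, 7.09 ± 0.16 in the IL-6-deficient transfer and 8.26 ± 0.08 in BALB arrays, and its lower 3 groups overlapped from each to the next. Dusp5 was at 9.60 ± 0.26 in SKG, 9.72 ± 0.41 in the IFN-γ-deficient transfer, 10.18 ± 0.20 in the IL-6-deficient transfer and 11.43 ± 0.26 in BALB arrays, with neighbours that overlapped everywhere except below BALB.

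Dusp2 was the one member whose 4 groups did not overlap at any step of the order. How often this held over all genes was not computed. It was at 11.52 ± 0.15 in SKG, 10.81 ± 0.01 in the IFN-γ-deficient transfer, 10.99 ± 0.04 in the IL-6-deficient transfer and 12.07 ± 0.16 in BALB arrays. Dusp4 had the transfer groups on top, with 10.97 ± 0.54 in SKG, 11.89 ± 0.12 in the IFN-γ-deficient transfer, 11.70 ± 0.10 in the IL-6-deficient transfer and 11.31 ± 0.27 in BALB arrays, and each neighbour overlapped the next. Dusp6 was at 11.35 ± 0.71 in SKG, 9.60 ± 0.40 in the IFN-γ-deficient transfer, 9.92 ± 0.42 in the IL-6-deficient transfer and 10.24 ± 0.61 in BALB arrays. Its order was SKG, BALB, the IL-6-deficient and then the IFN-γ-deficient transfer, again with overlap at each step. Dusp14 was at 5.81 ± 0.24 in SKG, 6.45 ± 0.24 in the IFN-γ-deficient transfer, 6.51 ± 0.06 in the IL-6-deficient transfer and 5.70 ± 0.18 in BALB arrays, so that both transfer groups lay above both strain groups.

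**Figure D3:**
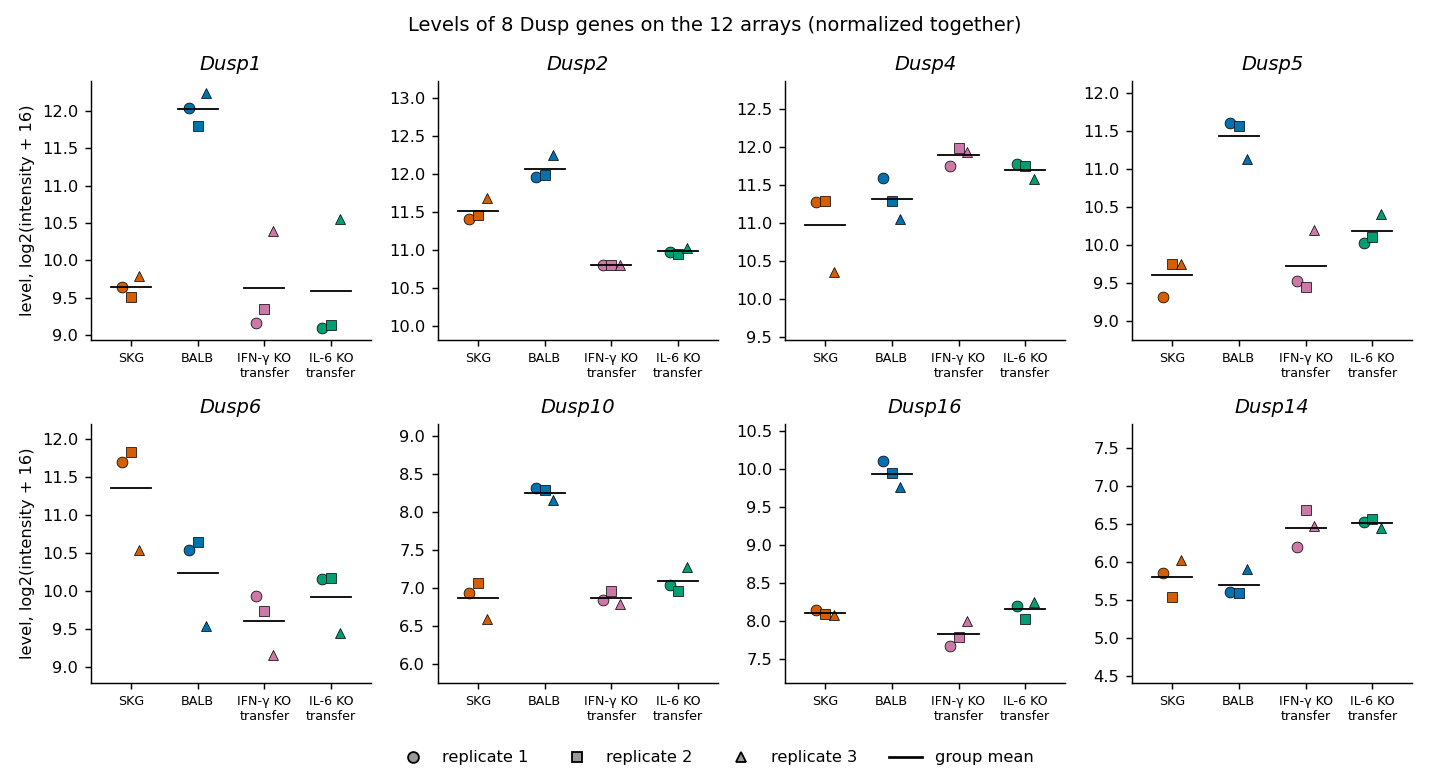
Level of each Dusp gene in log2(intensity + 16) (vertical axis) on each of the 12 arrays normalized together, by group, with the replicate number as the symbol and the group mean as a bar. For Dusp1, Dusp5, Dusp10 and Dusp16 the BALB arrays stand above all other arrays, with BALB means of 12.03, 11.43, 8.26 and 9.94, and for Dusp6 replicate 3 is the lowest array of every group.

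Replicate 3 stood apart in every group for Dusp6 and in the transfer groups for Dusp1. Set against the mean of replicates 1 and 2, Dusp6 in replicate 3 differed by -1.22 in SKG, -1.05 in BALB, -0.67 in the IFN-γ-deficient and -0.73 in the IL-6-deficient transfer. Of 12176 genes above the filter 1.26% were at least 0.5 lower in replicate 3 in all 4 groups. Dusp1 in replicate 3 differed by 1.13 in the IFN-γ-deficient and 1.43 in the IL-6-deficient transfer, against 0.22 in SKG and 0.32 in BALB, and 1.97% of genes were at least 1 higher in replicate 3 of both transfers. The actin 3′/5′ ratio was 3.81 and 5.13 in replicate 3 of the IFN-γ-deficient and the IL-6-deficient transfer, where replicates 1 and 2 of both lay between 1.60 and 1.67. The Gapdh ratio was 7.99 and 9.33 on the same 2 replicate 3 arrays, and between 2.42 and 2.84 in replicates 1 and 2 of both transfers. The part of these ratios in the Dusp1 and Dusp6 levels, and in the transfer and interaction results, was not tested.

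**Figure D4:**
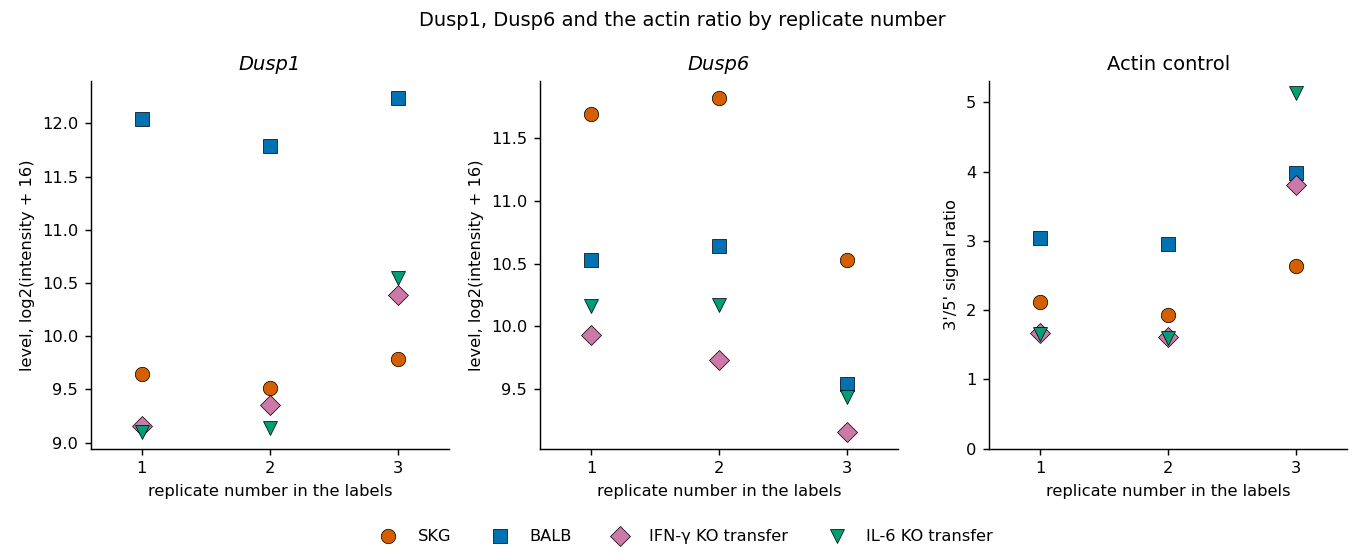
Level of Dusp1 and of Dusp6 in log2(intensity + 16) and actin 3′/5′ signal ratio (vertical axes) by the replicate number of the labels, 1 point per array, with the group as symbol and colour. Dusp6 is lower in replicate 3 of each group, with differences from -1.22 to -0.67, and the actin ratio is higher there, up to 5.13 in the IL-6-deficient transfer.

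The genes nearest in profile to Dusp1 and Dusp16, the members with the widest range of group means (2.43 and 2.12), were sought among the 12176 genes above the filter by the root mean square difference of centred levels over the 12 arrays. Jun, a subunit of AP-1, was nearest to Dusp1 at 0.20, followed by the tubulin gene Tubb2a at 0.26 and the phosphatase gene Dusp8 at 0.29. Jun was at 8.15 in SKG, 7.87 in the IFN-γ-deficient transfer, 7.86 in the IL-6-deficient transfer and 10.33 in BALB arrays. Nearest to Dusp16 were Foxo3, a transcription factor gene, at 0.12, Uap1, an enzyme gene of amino sugar synthesis, at 0.18 and Coq10b at 0.21. Their promoter windows were searched as above, after these neighbours were known. The full palindrome TGACGTCA was found 2 times in Dusp8 and once in Tubb2a, and was not found in Jun, Foxo3, Uap1 or Coq10b. The core TGACG was found 4 times each in Dusp8 and Coq10b, 2 times in Tubb2a and once each in Foxo3 and Uap1. It was not found in Jun. Of all promoters 1.55% held the palindrome and 17.8% the core.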

How the data were processed

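Per the labels' protocols, CD4+ T cell RNA was extracted by RNeasy and transcribed in vitro with a biotin label for Affymetrix Mouse Genome 430 2.0 arrays. The authors deposited linear intensities, 1 per probe set and array; which software and normalization made them is not given in the sources used here. Array medians ran from 15.7 to 27.6. Depth does not apply to arrays, and 3 arrays per group limit the precision.

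The 64 control probe sets were left out, and log2(intensity + 16) was quantile normalized over the arrays of each fit. The probe annotation gave 1 gene to 34958 probe sets and several to 932, and did not list 9211. Symbols were updated by gene ID to GRCm38.p6. A gene took the values of its probe set with the highest mean over the 12 arrays. The arrays of a comparison were modelled alone in limma 3.58.1 under R 4.3.3, using lmFit and eBayes with trend, two-sided, Benjamini-Hochberg over all genes tested, called at an adjusted p under 0.05. The fit was tested on simulated data. The members and lists were chosen with earlier results of these data known. Named are all members, up to 4 genes per pathway list with the smallest p, the 3 nearest profiles of the 2 widest-ranging members, and markers on which a count turns.

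The labels number replicates 1 to 3 in each group. For arrays of one number, the correlation over genes of their deviations from the group means was 0.13, 0.20 and 0.33 in SKG with BALB, and 0.46, 0.45 and 0.70 in the transfers. All exceed 0.1, so fits with the replicate number as a block were run beside the main fits, which had no block. Replicate 1 of one group with replicate 2 of the other gave 0.17 and 0.17, and 0.44 and 0.41, so the numbers do not single out pairs 1 and 2. Replicate 3 correlated negatively with both. This follows from the positive values, because deviations from the mean of 3 arrays sum to 0, and is no separate observation. The alternatives were other added constants, filters, scalings, probe set rules, fits without trend, all 12 arrays, the replicate block, array weights and leaving out arrays. Some genes of the lists are not analysed here.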

Additional observations from a re-analysis of the deposited data

Results flagged for a closer look

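The SKG minus BALB difference differed from the difference between the IFN-γ-deficient and the IL-6-deficient transfer, by the limma interaction over all 12 arrays, for Dusp1 (-2.42, adjusted p = 0.015), Dusp5 (-1.37, adjusted p = 0.018), Dusp10 (-1.16, adjusted p = 0.013) and Dusp16 (-1.50, adjusted p = 0.0024). For these 4 genes every SKG array lay below every BALB array, and their own SKG minus BALB differences were -2.39, -1.83, -1.37 and -1.87, against 0.03, -0.46, -0.22 and -0.33 between the transfers. Age, labelled stimulation, tissue and host differ together between the comparisons and cannot be told apart.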

How the results depend on the processing

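Of the SKG minus BALB results, Dusp1, Dusp5, Dusp10 and Dusp16 kept their direction and their call under all 19 alternatives, between -2.51 and -2.26, -2.02 and -1.68, -1.50 and -1.02, and -1.95 and -1.35, and Dusp2 under 18 of 19, without normalization being the exception. Dusp6 kept its direction under all 19 (0.75 to 1.51) and was called under 6, among them the replicate block and replicates 1 and 2 only (1.14, adjusted p = 4.3e-06), which was added after seeing the data. The count of called members was 5 or 6 throughout, while the share of all genes called ran from 15.1% without a filter to 42.5% with array weights. Between the transfers 0 members were called except with replicates 1 and 2 only (1). The uncalled difference of Dusp1 turned negative without normalization (-0.10) and when 1 array was left out (-0.34 without IFN-γ-deficient replicate 3, -0.21 and -0.19 without IL-6-deficient replicates 1 and 2, and up to 0.50), and that of Dusp14 turned positive with scaling to a trimmed mean (0.03) and without IFN-γ-deficient replicate 1 (0.07, the other arrays giving -0.17 to -0.03). The interaction count was 4, with 8.2% of all genes called, and between 3 and 5 when 1 array was left out (4.17% to 12.3%). It was 6 with array weights (30.3%) and with replicates 1 and 2 only (31.1%), and 7 with the replicate block (25.6%). Larger member counts thus came with larger shares of all genes, and the causes were not tested. Within the comparisons the block changed the call of Dusp6 and of the dim Dusp16 probe set and of no other member or probe set. Over all genes, 3324 were called between SKG and BALB, from 1960 without normalization to 5126 with array weights (5350 of 26404 probe sets when these were fitted separately), 14 between the transfers, from 2 without IFN-γ-deficient replicate 1 to 505 with replicates 1 and 2 only, and 999 in the interaction, from 438 without normalization to 3772 with replicates 1 and 2 only. The dim probe sets of Dusp10 and Dusp16 and the level of Dusp14 lie near the floor, which limits what their differences can show.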
